A study of Mus musculus with 6 samples.

Results

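The methionine cycle and transsulfuration enzymes were represented by 10 mouse genes: Mat2a, Mat2b, Ahcy, Ahcyl1, Ahcyl2, Gnmt, Mtr, Mtrr, Cbs and Cth. They were chosen by name from their place in the pathway, and all 10 were found by NCBI gene identifier among the 17254 genes listed in any library. Of these, 9 were among the 11717 genes with a mean FPKM (fragments counted per length of transcript and scaled to the library's total) of at least 1 over the libraries, which were the genes tested. The cells were neural stem and progenitor cells (NSPCs), described in the methods as an immortalized neonatal mouse culture that is null for Ink/Arf and holds a mixture of stem cells, neuronal precursors and oligodendroglial progenitors. All were grown in N2 medium with EGF and bFGF. Control cells were mock treated for 48 h, PQ cells received paraquat at 5 µM for 48 h, and NAC cells received N-acetylcysteine at 5 mM for 48 h, with 2 libraries per group. Paraquat generates superoxide by redox cycling, whereas N-acetylcysteine is a thiol antioxidant and a source of cysteine. The labels name the knockout and the strain C57BL/6 for control 1 and PQ 1 only and give no genotype for the other 4 libraries.

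The methionine cycle makes S-adenosylmethionine (SAM), the methyl donor for DNA, histone, lipid and small-molecule methylation, and recovers methionine from the homocysteine that is left once the methyl group has been passed on. Transsulfuration draws homocysteine out of the cycle and turns it into cysteine, from which glutathione and taurine are made. In brain cells the liver-type SAM synthase is replaced by the form encoded by Mat2a, and methionine is remade mainly by the cobalamin-dependent synthase.

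Expected counts, which are estimates that may be fractional, summed to 9849392 in control 1, 10040827 in control 2, 10388731 in PQ 1, 9680436 in PQ 2, 10698241 in NAC 1 and 9907726 in NAC 2. The labels describe a column kit with Illumina libraries for control 1 and PQ 1, and TRIZOL with BGISEQ-500 sequencing for control 2, PQ 2 and both NAC libraries. Values within a labelled protocol are therefore given beside the pooled ones for Mat2a, Ahcy, Ahcyl2, Cbs and Cth. NAC has no library of the first protocol. Nothing in the labels says that the 2 libraries of a group came from separate cultures, so p-values measure only the spread between these libraries.

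Levels per transcript length spanned more than 2 orders of magnitude among the genes. Ahcyl1 had the highest mean FPKM over the 6 libraries, at 87.9, followed by Mat2a at 84.4. Ahcy at 41.0 and Mat2b at 36.8 came next, and Ahcyl2 lay at 14.997. The range of FPKM over the libraries overlapped between Ahcyl1 and Mat2a and between Ahcy and Mat2b, so the order within either pair is not settled. Mtrr, Cbs and Mtr followed with mean FPKM of 7.59, 6.77 and 6.35, and their ranges overlapped as well. Cth at 1.33 and Gnmt at 0.175 were the lowest, and neither range met that of a neighbour. Among the genes tested, the mean FPKM of Ahcyl1 stood at percentile 93.0 and that of Cth at percentile 3.14.

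**Figure D1:**
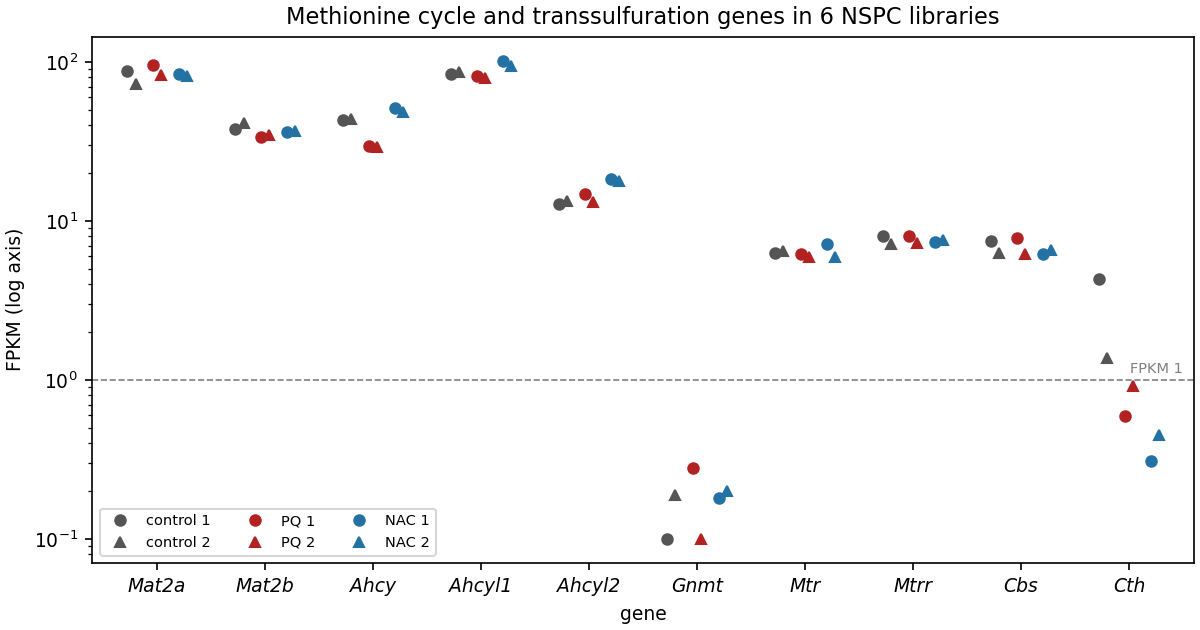
FPKM of the 10 genes in each library on a log axis, with circles for replicate 1 and triangles for replicate 2 of control (grey), PQ (red) and NAC (blue), and a dashed line at an FPKM of 1. The PQ libraries of Ahcy sit at 29.7 and 29.2, below the control and NAC libraries, Cth falls from 4.33 in control 1 to 0.31 in NAC 1, and Gnmt stays between 0.1 and 0.28.

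Against control, PQ lowered Ahcy and Cth, NAC raised Ahcyl2 and lowered Cth, and between the treatments Ahcy, Ahcyl1 and Ahcyl2 were lower in PQ than in NAC. By edgeR's quasi-likelihood test at an adjusted p under 0.05, PQ against control gave 0 higher and 2 lower of the 9 genes tested, beside 9.76% of all 11717 genes higher and 9.45% lower. In NAC against control, 1 was higher and 1 lower, beside 9.01% and 9.64% of all genes. In PQ against NAC, 0 were higher and 3 lower, beside 16.0% and 15.7%. The counts of 0 were also 0 at an unadjusted p under 0.05 by edgeR, and by DESeq2 and limma. The 2 in PQ against control became 1 without control 1 or PQ 1, and the 3 in PQ against NAC became 2 without PQ 1 and 1 without PQ 2 or NAC 1. Over all genes, the 2250 calls in PQ against control became 866 without PQ 1, the 2186 in NAC against control became 1259 without NAC 1 and 1427 without NAC 2, and the 3708 in PQ against NAC became 2343 without PQ 1 and 2383 without NAC 1. Scaling by library totals gave 1335 genes higher and 946 lower in NAC against control, beside 1056 and 1130 with TMM scaling. With 9 genes these shares cannot be read against the background, and Cth passed the filter only through control 1, since its mean FPKM over the other 5 libraries was 0.728. The median log2 fold change of the 9 genes was -0.10 in PQ against control, -0.01 in NAC against control and -0.09 in PQ against NAC, and the median over all genes was 0.00 in each. PQ against control and NAC against control share the control libraries.

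**Figure D2:**
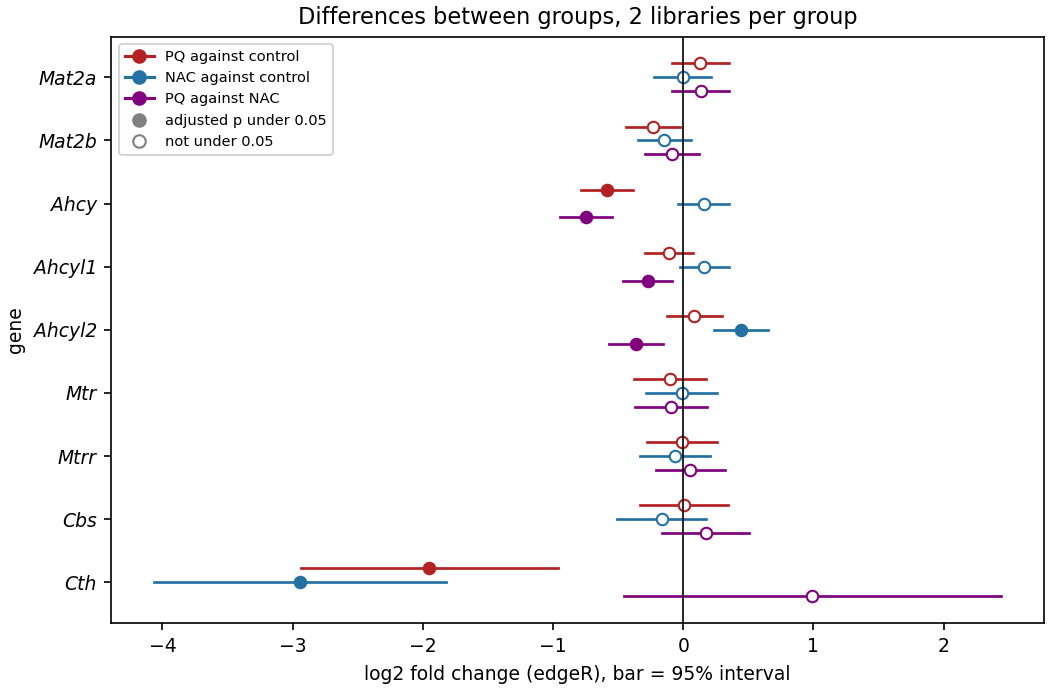
Log2 fold changes by edgeR for the 9 genes tested in PQ against control (red), NAC against control (blue) and PQ against NAC (purple), with bars for the 95% interval and filled points for an adjusted p under 0.05. Ahcy lies at -0.59 and -0.75 in the comparisons with PQ, and the intervals of Cth are the widest, from -2.94 to -0.96 in PQ against control.

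Gnmt was not detectable at this depth in any group. It encodes glycine N-methyltransferase, which uses up SAM and is abundant in liver. Control 1 had 1 expected count and control 2 had 2, PQ 1 had 3 and PQ 2 had 1, and each NAC library had 2. The 6 libraries thus held 11 counts with at most 3 in any, and no fold was computed. Summed over a group, the counts were 3 in control, 4 in PQ and 4 in NAC, with exact Poisson 95% intervals of 0.619 to 8.77 in control and 1.09 to 10.2 in each of PQ and NAC, which cover counting error only and overlap. A change in Gnmt within these bounds would not be seen here. On mm9, Gnmt (NCBI gene 14711, chromosome 17, 46862613 to 46866117, minus strand) is inside the span of the lincRNA gene Gm16736 on the opposite strand. Mat1a, which encodes the liver-type SAM synthase, and Bhmt and Bhmt2, which remake methionine from betaine and related donors, had no row in any library. Chdh, which makes the precursor of betaine, had none either. Dmgdh, which breaks down dimethylglycine, had a single count in NAC 2. The other enzymes at or under 3 counts in every library were the small-molecule methyltransferases Nnmt, Hnmt and Inmt.

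SAM is made from methionine and ATP by the catalytic subunit MAT2A, with MAT2B as its regulatory partner. Mat2a (NCBI gene 232087, chromosome 6 of mm9, 72382793 to 72389552, minus strand) had FPKM values of 88.0 and 73.0 in control, 96.2 and 83.5 in PQ, and 84.1 and 81.9 in NAC. The control libraries lay further apart than the means of any 2 groups, which were 80.5 ± 10.6 for control, 89.8 ± 9.02 for PQ and 83.0 ± 1.56 for NAC (SD, n = 2). The groups overlapped, except that both PQ libraries lay above both NAC libraries in normalized counts. The log2 fold change of Mat2a was 0.13 in PQ against control (95% interval -0.09 to 0.35, adjusted p = 0.43 by edgeR). In NAC against control the interval ran from -0.22 to 0.22 (adjusted p = 0.99 by edgeR), and in PQ against NAC from -0.09 to 0.35 (adjusted p = 0.36 by edgeR). With all libraries, these intervals bounded any difference in Mat2a between groups at 1.28-fold. Without control 1, its log2 fold change in PQ against control was 0.28. Within protocols, PQ lay above control by 0.08 for the column kit and by 0.19 for BGISEQ-500 on the log2 scale. Within BGISEQ-500, NAC 1 and NAC 2 lay above control 2 by 0.17 and 0.12. Mat2b (NCBI gene 108645, chromosome 11, 40492816 to 40508705, minus strand) had FPKM values of 37.8 and 41.4 in control, 33.9 and 34.6 in PQ, and 36.5 and 36.9 in NAC. Both treated groups lay below both control libraries. Its log2 fold change was -0.23 in PQ against control (95% interval -0.44 to -0.03, adjusted p = 0.11 by edgeR) and -0.15 in NAC against control (95% interval -0.35 to 0.06, adjusted p = 0.33 by edgeR). In PQ against NAC it was -0.09, with an interval from -0.29 to 0.12 (adjusted p = 0.54 by edgeR). A snoRNA gene on the same strand lies within Mat2b, and whether its reads enter the count is not given in the sources used here. Mettl16, which encodes the RNA methyltransferase that acts on Mat2a mRNA, had FPKM values of 10.5 and 9.43 in control, 9.61 and 8.38 in PQ, and 12.5 and 11.2 in NAC. It was lower in PQ than in NAC by a log2 fold change of -0.38 (adjusted p = 0.036 by edgeR), a call that was lost without any single PQ or NAC library, with adjusted p from 0.050 to 0.26 by edgeR, and was not made by DESeq2 (adjusted p = 0.098).

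S-adenosylhomocysteine (SAH), the product of SAM-dependent methylation and an inhibitor of many methyltransferases, is split into homocysteine and adenosine by the enzyme that Ahcy encodes. Ahcy showed the clearest separation of groups. Its FPKM was 43.1 and 43.9 in control, 29.7 and 29.2 in PQ, and 51.6 and 48.5 in NAC, from expected counts of 1089 and 1129, 792 and 725, and 1415 and 1233. No PQ library came near a control or NAC library, and both NAC libraries lay above both control libraries. Ahcy (NCBI gene 269378, chromosome 2 of mm9, 154885046 to 154900233, minus strand) was 1.503-fold lower in PQ than in control (95% interval 1.31 to 1.73, log2 fold change -0.59, SE 0.10, adjusted p = 3.3e-04 by edgeR). It was 1.68-fold lower in PQ than in NAC (95% interval 1.46 to 1.93, log2 fold change -0.75, SE 0.10, adjusted p = 9.1e-06 by edgeR). In NAC against control the log2 fold change was 0.16 (95% interval -0.04 to 0.35, adjusted p = 0.27 by edgeR). Within protocols, the log2 difference in normalized counts between PQ and control was -0.58 for the column kit and -0.59 for BGISEQ-500. Within BGISEQ-500, PQ 2 lay below NAC 1 by -0.80 and below NAC 2 by -0.69 on the log2 scale. Fewer cells of a type that expresses Ahcy and less Ahcy RNA per cell cannot be told apart in bulk RNA.

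Ahcyl1 and Ahcyl2 encode relatives of this hydrolase that are known as regulators of the IP3 receptor and of ion transporters. Ahcyl1 (NCBI gene 229709, chromosome 3, 107466036 to 107499478, minus strand) had FPKM values of 83.7 and 86.5 in control, 81.7 and 79.0 in PQ, and 102 and 94.8 in NAC. The groups did not overlap, but PQ and control were close together and NAC stood higher. Ahcyl1 was lower in PQ than in NAC by 1.21-fold (95% interval 1.06 to 1.37, log2 fold change -0.27, SE 0.09, adjusted p = 0.025 by edgeR). The call was lost with the protocol as a covariate (adjusted p = 0.092 by edgeR). It was also lost without PQ 1, PQ 2 or NAC 1 (adjusted p = 0.11, 0.14 and 0.20 by edgeR). Against control, the log2 fold change was -0.11 in PQ (95% interval -0.30 to 0.08, adjusted p = 0.44 by edgeR) and 0.16 in NAC (95% interval -0.02 to 0.35, adjusted p = 0.22 by edgeR). Ahcyl2 (NCBI gene 74340, chromosome 6, 29718443 to 29862310, plus strand) had FPKM values of 12.7 and 13.3 in control, 14.8 and 13.1 in PQ, and 18.3 and 17.9 in NAC. Both NAC libraries lay above the other 4, and PQ and control overlapped. Ahcyl2 was 1.36-fold higher in NAC than in control (95% interval 1.18 to 1.57, log2 fold change 0.44, SE 0.10, adjusted p = 0.0036 by edgeR). Within BGISEQ-500, the NAC libraries lay above control 2 by 0.45 and 0.40 on the log2 scale. The log2 fold change in PQ against NAC was -0.36 (SE 0.10, adjusted p = 0.0093 by edgeR), but without PQ 2 or NAC 1 the adjusted p was 0.13 or 0.070 by edgeR. In PQ against control it was 0.08 (95% interval -0.13 to 0.30, adjusted p = 0.62 by edgeR). Expected counts of Ahcy, Ahcyl1 and Ahcyl2 were whole in every library, so the values show no read divided between these relatives.

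Since Ahcy and its relatives differed between groups in different ways, their promoters are shown, from 250 bases before to 50 bases after the first start listed for each in RefSeq on GRCm38.p6, a build whose positions are not interchangeable with those of mm9. RefSeq promoters were found for 9 of the 10 genes, 14 windows in all, and Cth was the gene without one. Capitals mark the matches, searched on both strands, to 7 motifs. These were CCAAT, FOXO (TGTTTAC), CRE (TGACGTCA), AP-1 (TGANTCA), ARE (TGACNNNGC), the ATF4 composite element (TGATGNAA) and the core promoter box TATAAA, of which CRE and ARE share their first 4 letters. The windows are chr2:155074448-155074747 on the minus strand for Ahcy, chr3:107696511-107696810 on the minus strand for Ahcyl1 and chr6:29768193-29768492 on the plus strand for Ahcyl2, each read 5′ to 3′ on the strand of the gene.
Ahcy: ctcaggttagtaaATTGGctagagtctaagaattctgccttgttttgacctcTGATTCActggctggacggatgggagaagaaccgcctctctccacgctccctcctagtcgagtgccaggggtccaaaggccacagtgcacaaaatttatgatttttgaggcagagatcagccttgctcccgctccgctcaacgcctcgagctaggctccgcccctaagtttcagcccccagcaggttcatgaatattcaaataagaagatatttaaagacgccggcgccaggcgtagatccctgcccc
Ahcyl1: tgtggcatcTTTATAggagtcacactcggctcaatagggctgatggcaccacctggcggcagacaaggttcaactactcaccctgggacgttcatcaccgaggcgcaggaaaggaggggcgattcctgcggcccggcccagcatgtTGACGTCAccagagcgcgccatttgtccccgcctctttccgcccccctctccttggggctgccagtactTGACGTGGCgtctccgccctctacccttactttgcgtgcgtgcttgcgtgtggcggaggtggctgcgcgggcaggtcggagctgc
Ahcyl2: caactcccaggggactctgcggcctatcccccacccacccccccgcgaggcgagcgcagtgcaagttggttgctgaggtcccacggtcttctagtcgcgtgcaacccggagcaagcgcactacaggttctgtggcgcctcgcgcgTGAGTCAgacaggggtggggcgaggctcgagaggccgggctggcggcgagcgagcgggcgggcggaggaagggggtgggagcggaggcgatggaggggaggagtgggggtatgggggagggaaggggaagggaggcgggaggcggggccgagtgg
The Ahcy window held an AP-1 match from -198 to -192 and a CCAAT match on the opposite strand from -237 to -233. The Ahcyl1 window held a CRE match from -104 to -97, an ARE match from -35 to -27 and a TATAAA match on the opposite strand from -241 to -236. The Ahcyl2 window held an AP-1 match from -105 to -99. Of 32851 RefSeq promoter windows of this length, 7.81% held an AP-1 match, 1.79% a CRE match, 12.4% an ARE match, 13.6% a TATAAA match and 37.4% a CCAAT match. A FOXO match, found in 3.65% of all windows, was in the second of the 3 windows of Ahcyl2. The ATF4 composite, found in 3.97%, was in none of the 14, and the promoter of Cth was not searched. These matches describe the letters only.

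Homocysteine is remethylated by methionine synthase, encoded by Mtr, and Mtrr encodes the reductase that keeps its cobalamin active. Mtr (NCBI gene 238505, chromosome 13, 12279086 to 12350267, minus strand) had FPKM values of 6.31 and 6.52 in control, 6.19 and 5.96 in PQ, and 7.20 and 5.92 in NAC. NAC 1 was the highest library and NAC 2 the lowest, so that the NAC libraries enclosed all the others. The log2 fold change of Mtr was -0.10 in PQ against control (95% interval -0.38 to 0.17, adjusted p = 0.64 by edgeR), and in NAC against control the interval ran from -0.29 to 0.26 (adjusted p = 0.96 by edgeR). In PQ against NAC the interval ran from -0.37 to 0.18 (adjusted p = 0.64 by edgeR). Mtrr (NCBI gene 210009, chromosome 13, 68699657 to 68720998, minus strand) had FPKM values of 7.99 and 7.19 in control, 8.04 and 7.31 in PQ, and 7.39 and 7.62 in NAC. All groups overlapped. Its intervals ran from -0.28 to 0.26 in PQ against control (adjusted p = 0.98 by edgeR), from -0.33 to 0.20 in NAC against control (adjusted p = 0.78 by edgeR) and from -0.21 to 0.32 in PQ against NAC (adjusted p = 0.78 by edgeR). No library had a whole expected count for Mtrr, a sign that some reads were shared out between genes, so its level is uncertain. Other genes given below have the same limit. Counts were fractional in all 6 libraries for Odc1, Slc3a2, Slc43a2, Abcd4, Lmbrd1 and Egfr, and in 5 for Sms.

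Transsulfuration begins with cystathionine beta-synthase, encoded by Cbs, which joins homocysteine to serine, and ends with cystathionine gamma-lyase, encoded by Cth, which releases cysteine. Cbs (NCBI gene 12411, chromosome 17, 31749568 to 31774144, minus strand) had FPKM values of 7.51 and 6.31 in control, 7.87 and 6.22 in PQ, and 6.17 and 6.54 in NAC. The 2 column-kit libraries were the highest, and the groups overlapped. The log2 fold change of Cbs was 0.01 in PQ against control (95% interval -0.33 to 0.34, adjusted p = 0.99 by edgeR), -0.17 in NAC against control (95% interval -0.50 to 0.17, adjusted p = 0.52 by edgeR) and 0.17 in PQ against NAC (95% interval -0.17 to 0.51, adjusted p = 0.45 by edgeR). Within protocols the PQ and control libraries differed by 0.02 and -0.02 on the log2 scale.

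Of the 9 genes tested, Cth was nearest the detection limit. It had 77 and 25 expected counts in control, 11 and 16 in PQ and 6 and 8 in NAC, or FPKM values of 4.33 and 1.38, 0.59 and 0.91, and 0.31 and 0.45. Both control libraries lay above all treated libraries and both NAC libraries lay below both PQ libraries, while control 1 stood far above control 2. Cth (NCBI gene 107869, chromosome 3, 157557212 to 157588041, minus strand) was 3.86-fold lower in PQ than in control (95% interval 1.95 to 7.65, log2 fold change -1.95, SE 0.47, adjusted p = 0.0067 by edgeR). It was 7.69-fold lower in NAC than in control (95% interval 3.53 to 16.7, log2 fold change -2.94, SE 0.54, adjusted p = 6.0e-04 by edgeR). In PQ against NAC the log2 fold change was 0.99 (95% interval -0.46 to 2.44, adjusted p = 0.30 by edgeR). The fall in PQ rested on control 1 and on PQ 1, since without control 1 the log2 fold change was -0.90 (adjusted p = 0.25 by edgeR) and without PQ 1 it was -1.64 (adjusted p = 0.090 by edgeR). Without control 2 it was -2.56 (adjusted p = 8.0e-06 by edgeR). Limma on log2(FPKM + 1), a scale that understates the change of low genes, gave -1.03 (adjusted p = 0.067), and limma on log2(FPKM + 0.1) gave -1.62 (adjusted p = 0.076). Within protocols, PQ lay below control by -2.93 on the log2 scale for the column kit and by -0.60 for BGISEQ-500. The fall in NAC kept an adjusted p under 0.05 in all 15 alternatives. Its log2 fold change was -1.89 without control 1 and -3.55 without control 2. The fits without single libraries kept the genes filtered on all 6 libraries. Cth therefore stayed in the fits without control 1, although its mean FPKM was then 0.728, under the filter. Within BGISEQ-500, the NAC libraries lay below control 2 by -2.18 and -1.67. Summed over a group, Cth counts were 102 in control, 27 in PQ and 14 in NAC, with exact Poisson 95% intervals of 83.2 to 124, 17.8 to 39.3 and 7.65 to 23.5, which cover counting error only.

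The 3 genes whose log2 CPM (TMM-normalized counts relative to the library total) followed that of Cth most closely over the 6 libraries were Rhbdd1 (Pearson's r = 0.996), Adgra2 (r = 0.996) and Pacc1 (r = 0.995). These are the highest of all genes tested, so high values follow from the choice, and 6 libraries in 3 groups are few points. Rhbdd1 had 775 and 574 counts in control, 427 and 453 in PQ, and 379 and 392 in NAC. Cth is also widely described as a target of ATF4, a transcription factor induced by amino acid shortage and endoplasmic reticulum stress, and 10 genes of this kind (ATF4 with its targets) were compared with it. Of the 10, 8 fell in PQ against control (adjusted p under 0.05 by edgeR), beside 9.45% of all genes, and the median log2 fold change of the list was -0.93. The 8 became 6 with DESeq2 and with either limma fit. Fewer genes of the list passed without control 1 or without either PQ library, and more passed without control 2. In NAC against control 9 fell, beside 9.64% of all genes, with a median of -1.25. Between PQ and NAC, 5 were higher in PQ and 0 lower, beside 16.0% and 15.7%, with a median of 0.55. The 5 became 3 without PQ 1 or without NAC 1, and with the protocol as a covariate 4 were higher and 1 lower. Chac1, which breaks down glutathione, had FPKM values of 34.0 and 20.4 in control, 5.02 and 4.54 in PQ, and 2.14 and 2.63 in NAC. Asns, the asparagine synthetase gene, had 161 and 98.4 in control, 48.8 and 53.2 in PQ, and 31.4 and 28.0 in NAC. Trib3, a pseudokinase gene, had 39.2 and 19.2, 7.62 and 6.66, and 3.70 and 4.73. For these genes, as for Cth, control 1 was the highest library, control 2 came next, and the NAC libraries were the lowest. Psat1, a serine synthesis gene, had 245 and 218 in control, 127 and 141 in PQ, and 136 and 130 in NAC, so that its treated groups overlapped. Whether ATF4 had a part in the level of Cth was not tested.

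**Figure D3:**
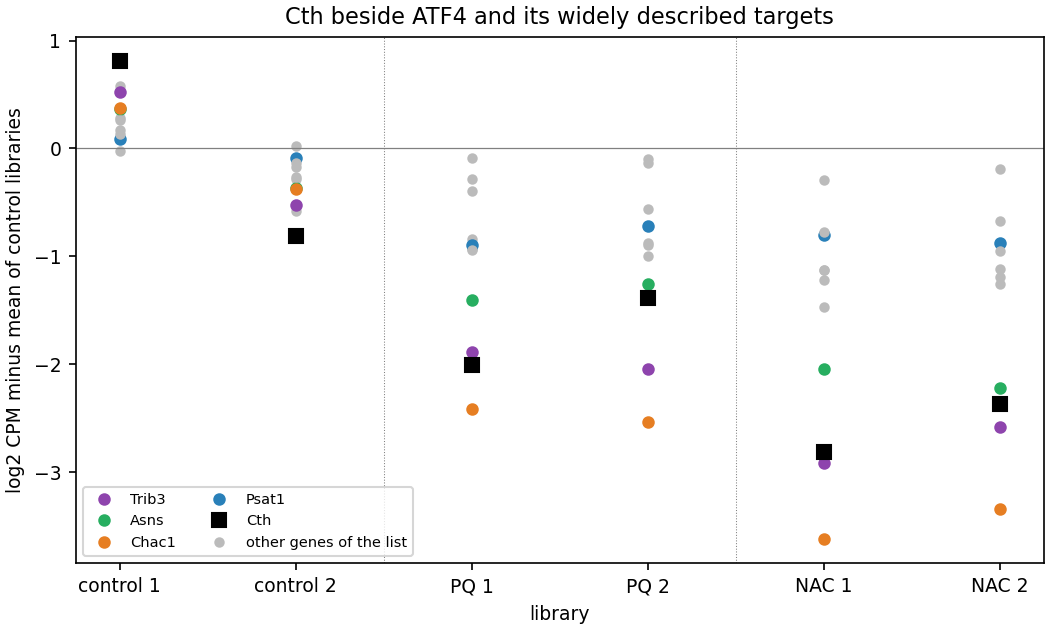
Log2 CPM minus the mean of the control libraries, by library, for Cth (black squares), for Chac1, Asns, Trib3 and Psat1 (coloured points) and for the other 6 genes of the ATF4 list (grey points). Cth lies at 0.81 in control 1 and -0.81 in control 2, at -2.01 and -1.38 in PQ and at -2.81 and -2.37 in NAC, and Chac1 reaches -3.62 in NAC 1.

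Around the cycle, 57 other genes were examined in 9 lists, of which 48 were tested, 1 had a mean FPKM under 1 (Gadl1, named after its values were seen), and the 8 named above were at or under 3 counts. By the same test, 3 of the 48 were higher and 11 lower in PQ against control, and their median log2 fold change was -0.12. These are 6.25% and 22.9% of the 48, beside 9.76% and 9.45% of all 11717 genes. In NAC against control 5 were higher and 10 lower (10.4% and 20.8%, beside 9.01% and 9.64% of all genes), with a median of -0.10. In PQ against NAC 9 were higher and 10 lower (18.8% and 20.8%, beside 16.0% and 15.7%), with a median of -0.02. No test of these shares was made, and the single lists below hold at most 10 tested genes, too few to be read against the shares of all genes. The 14 calls in PQ against control became 9 without PQ 1, and the 15 in NAC against control became 10 without either NAC library. The 19 in PQ against NAC became between 9 and 12 without any single PQ or NAC library.

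Of 4 genes for methionine uptake, 3 were lower and 1 higher in PQ against control by edgeR, beside 9.45% and 9.76% of all genes. The calls in NAC were 2, both lower than in control, beside 9.64%. Slc7a5, the light chain of a large neutral amino acid carrier that takes up methionine, had FPKM values of 138 and 78.9 in control, 25.2 and 26.8 in PQ, and 30.1 and 30.4 in NAC. Its log2 fold change was -2.09 in PQ (SE 0.17, adjusted p = 4.1e-07 by edgeR) and -1.89 in NAC (SE 0.17, adjusted p = 3.4e-07 by edgeR), each against control. Slc3a2, the heavy chain of the same carrier, fell by 1.00 in PQ and by 1.02 in NAC on the log2 scale (adjusted p = 1.0e-04 and 4.4e-05 by edgeR). Slc38a2 and Slc43a2, 2 other carriers, passed the threshold in PQ against control with log2 fold changes of -0.31 and 0.84, and both calls were lost without PQ 1, with adjusted p of 0.28 and 0.12 by edgeR. With either limma fit the adjusted p lay between 0.062 and 0.074 for these 2 calls. The call of Slc38a2 was also lost without control 2, with an adjusted p of 0.098 by edgeR.

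Of 3 folate enzymes, 2 were lower in PQ against control by edgeR, beside 9.45% of all genes, with a median log2 fold change of -0.72. Shmt2, which makes one-carbon units from serine in mitochondria, had FPKM values of 165 and 125 in control, 54.3 and 55.1 in PQ, and 54.3 and 56.1 in NAC, so that the treated groups lay together. Its log2 fold change was -1.43 in PQ and -1.44 in NAC against control (adjusted p = 3.3e-07 and 9.5e-08 by edgeR). Shmt1, the cytosolic form, had 14.8 and 17.8 in control, 10.6 and 9.58 in PQ, and 23.3 and 22.1 in NAC. Like Ahcy, its PQ libraries were the lowest and its NAC libraries the highest, with a log2 fold change of -1.15 in PQ against NAC (SE 0.13, adjusted p = 1.6e-06 by edgeR). Its rise in NAC against control, at 0.44, was lost without control 1, NAC 1 or NAC 2 (adjusted p = 0.13, 0.13 and 0.051 by edgeR) and with the protocol as a covariate (adjusted p = 0.072 by edgeR). Mthfd1, which interconverts folates in the cytosol, differed between PQ and NAC by -0.60 (adjusted p = 2.8e-04 by edgeR).

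Removal of adenosine, the other product of SAH hydrolysis, was represented by Adk and Ada. Ada had FPKM values of 3.12 and 3.59 in control, 4.38 and 3.66 in PQ, and 2.82 and 2.81 in NAC. It was thus highest in PQ and lowest in NAC, unlike Ahcy, but was not called in any comparison. Adk, which encodes adenosine kinase, had FPKM values of 26.2 and 27.2 in control, 21.7 and 19.8 in PQ, and 33.2 and 31.6 in NAC, the same order of groups as Ahcy. Its log2 fold change was -0.39 in PQ against control (adjusted p = 0.018 by edgeR), lost without PQ 1 or PQ 2 (adjusted p = 0.068 and 0.14 by edgeR), and -0.62 in PQ against NAC (adjusted p = 2.1e-04 by edgeR). The next list held 10 genes of the polyamine branch, which takes SAM after decarboxylation, and of methionine salvage. In it, 1 was higher and 3 lower in PQ against control by edgeR, beside 9.76% and 9.45% of all genes. DESeq2 gave 1 higher and 2 lower. Odc1, the ornithine decarboxylase gene, had 1157 and 1126 in control, 773 and 831 in PQ, and 651 and 728 in NAC. Srm, which encodes spermidine synthase, had 31.8 and 37.0 in control, 22.7 and 21.3 in PQ, and 34.3 and 35.2 in NAC, and was lower in PQ than in control by a log2 fold change of -0.67 (adjusted p = 5.6e-04 by edgeR). Sat1, which acetylates polyamines for breakdown, had 67.8 and 61.3 in control, 97.1 and 98.0 in PQ, and 99.98 and 107.7 in NAC, higher in both treatments. Sms, which encodes spermine synthase, was lower in NAC than in control by a log2 fold change of -0.34 (adjusted p = 0.027 by edgeR), lost without control 1 or NAC 2 (adjusted p = 0.20 and 0.27 by edgeR), with the protocol as a covariate (adjusted p = 0.13 by edgeR) and with limma (adjusted p = 0.096 and 0.098).

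Of the other methyltransferases, 8 of 11 were tested and 2 were lower in NAC against control by edgeR, beside 9.64% of all genes. In PQ against control 0 passed the threshold by edgeR, and 0 had an unadjusted p under 0.05, while DESeq2 called 0 and limma 1. The ubiquinone enzyme gene Coq3 had FPKM values of 9.42 and 9.89 in control, 9.52 and 10.3 in PQ, and 5.75 and 5.28 in NAC, so that NAC alone stood apart, with a log2 fold change of -0.85 against control (adjusted p = 2.5e-04 by edgeR). Coq5, of the same pathway, had a log2 fold change of -0.44 in NAC against control (adjusted p = 0.0093 by edgeR). This call was lost without NAC 1 or NAC 2 (adjusted p = 0.052 and 0.079 by edgeR), and with the protocol as a covariate its adjusted p was 0.050 by edgeR. In the betaine and sarcosine list, Pipox, which oxidises sarcosine and pipecolate, had 48.5 and 50.4 in control, 36.0 and 33.4 in PQ, and 23.3 and 28.8 in NAC. Among 8 cobalamin genes, Tcn2, the cobalamin transport protein gene, had 14.0 and 15.8, 25.9 and 23.3, and 17.6 and 18.0, and was higher in PQ than in control by a log2 fold change of 0.70 (adjusted p = 3.4e-04 by edgeR). Abcd4, a lysosomal cobalamin exporter, had 18.9 and 18.4, 24.6 and 20.7, and 11.1 and 14.0, and its fall in NAC against control was lost without NAC 1 (adjusted p = 0.052 by edgeR). Lmbrd1, its partner, had 6.41 and 6.05, 7.42 and 6.58, and 9.15 and 8.76, and its rise in NAC against control was lost without NAC 1 (adjusted p = 0.064 by edgeR).

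Of the 9 tested genes for the use of cysteine and related sulfur compounds, 2 were higher and 1 lower in NAC against control by edgeR. The shares of all genes were 9.01% and 9.64%. Against NAC, PQ had 3 higher and 4 lower, beside 16.0% and 15.7%. DESeq2 gave 1 higher and 1 lower in NAC against control, and 2 higher and 2 lower in PQ against NAC. Cdo1, which oxidises cysteine towards taurine and sulfate, had FPKM values of 0.20 and 0.72 in control, 0.76 and 0.61 in PQ, and 1.66 and 2.39 in NAC. It was higher in both NAC libraries than in any other, with a log2 fold change of 2.06 against control (SE 0.48, adjusted p = 0.0048 by edgeR). Without control 1 it was 1.43 (adjusted p = 0.052 by edgeR) and without NAC 2 it was 1.79 (adjusted p = 0.056 by edgeR). Cdo1 passed the filter only through the NAC libraries, and its mean FPKM without NAC 1 was 0.936. Csad, the next enzyme towards taurine, had 11.3 and 11.8 in control, 10.9 and 11.7 in PQ, and 15.2 and 15.7 in NAC. Its call in NAC against control (adjusted p = 0.040 by edgeR) was lost without any single library, with adjusted p from 0.052 to 0.17 by edgeR, and with the protocol as a covariate (adjusted p = 0.16 by edgeR), and was not made by DESeq2 (adjusted p = 0.12). Sqor, which oxidises sulfide, had 4.01 and 4.24, 5.55 and 6.89, and 3.52 and 3.03, highest in PQ. Got1, an aspartate aminotransferase gene, had 22.7 and 24.9, 24.1 and 20.2, and 12.6 and 15.2, lowest in NAC.

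**Figure D4:**
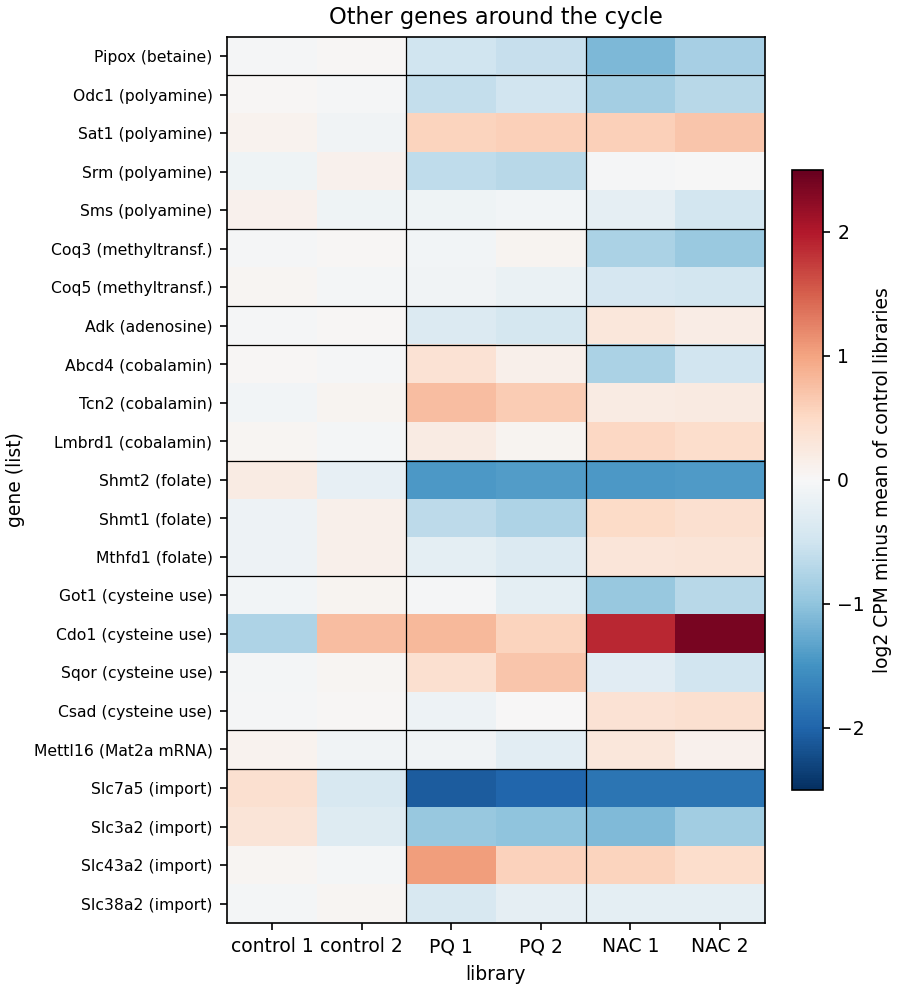
Log2 CPM minus the mean of the control libraries (colour, blue lower and red higher) for the 23 called genes named from the lists around the cycle, by library. Slc7a5 reaches -2.09 in PQ 1 and -1.83 in NAC 1, Shmt2 -1.44 in both, and Shmt1 lies at -0.65 in PQ 1 but 0.49 in NAC 1.

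The labelled cell type was checked against marker genes. All 8 NSPC markers passed the filter, and Vim was the most abundant of them, with FPKM values of 2171 and 2323 in control, 2547 and 2647 in PQ, and 1362 and 1389 in NAC. The summed FPKM of this list was 3318 and 3402 in control, 3707 and 3759 in PQ, and 2580 and 2507 in NAC, and 52.8% to 70.4% of it was Vim. The other markers did not all follow this sum, and the median log2 fold change of the 8 was -0.10 in PQ against control. Sox2 had FPKM values of 164 and 141, 122 and 121, and 124 and 130, and Pax6 had 12.6 and 10.9, 10.4 and 9.51, and 14.2 and 11.9, each lower in both PQ libraries than in control. Msi1 had 14.3 and 19.5, 15.6 and 13.5, and 16.8 and 19.9. Nes, an intermediate filament gene, had 87.7 and 91.9, 117 and 114, and 76.7 and 76.6. The growth factor receptor gene Egfr had 30.0 and 27.4, 26.2 and 23.8, and 35.4 and 33.9. Sox9, a transcription factor of neural progenitors, had 38.4 and 47.2, 53.0 and 54.0, and 38.1 and 42.5, and was higher in PQ than in NAC by a log2 fold change of 0.43 (adjusted p = 0.0038 by edgeR), a call lost without NAC 1 (adjusted p = 0.063 by edgeR). The part of these shifts in the level of Ahcy was not tested.

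Of 7 astrocyte markers, 4 were higher and 1 lower in NAC against control by edgeR, beside 9.01% and 9.64% of all genes. In PQ against control 2 were higher and 1 lower, beside 9.76% and 9.45%. In PQ against NAC 2 were higher and 4 lower, beside 16.0% and 15.7%. Gja1 had the highest mean FPKM over the libraries, at 128 and 124 in control, 154 and 165 in PQ, and 97.7 and 96.0 in NAC. Slc1a3 lay above Gja1 in both NAC libraries. The summed FPKM of the list stayed between 224 and 249 in all libraries. Aqp4 had 0.79 and 0.70, 0.54 and 0.83, and 2.66 and 2.56. Aldh1l1, highest in PQ, had 1.11 and 1.34, 3.28 and 2.36, and 1.11 and 0.68. Gfap had expected counts of 44 and 59, 50 and 52, and 119 and 139. Slc1a3 had FPKM values of 106 and 92.0, 71.4 and 73.7, and 126 and 125, and its call in NAC against control (log2 fold change 0.29, adjusted p = 0.034 by edgeR) was lost without control 2, either PQ library or either NAC library (adjusted p from 0.052 to 0.25 by edgeR) and with the protocol as a covariate (adjusted p = 0.064 by edgeR). Of 8 oligodendrocyte lineage markers 4 were tested and 2 were at or under 3 counts, and 3 were higher in NAC against control, beside 9.01% of all genes. DESeq2 called 2 of them and limma 1. All 3 calls were lost without control 1 or without NAC 2, with adjusted p from 0.067 to 0.24 by edgeR, and with the protocol as a covariate, with adjusted p from 0.051 to 0.13 by edgeR. The summed FPKM of the list was 652 and 753 in control, 768 and 666 in PQ, and 816 and 926 in NAC. Olig1 led it over the libraries, at 320 and 414, 445 and 388, and 454 and 554, and Mog was at 0. In control 1 Olig2 was just above Olig1, at 320.65 beside 320.37. Of 7 neuron markers 2 were tested and 2 were at or under 3 counts, with Rbfox3 at 0. Their summed FPKM was 43.2 and 42.8 in control, 42.8 and 43.8 in PQ, and 70.1 and 63.0 in NAC. Map2 was the most abundant, at 35.6 and 34.2, 32.6 and 34.1, and 64.9 and 58.0. Map2 made up 76.1% to 92.6% of the sum. Tubb3, a neuronal tubulin gene with a mean FPKM under 1, went the other way, with expected counts of 41.0 and 22.9 in control, 13 and 8 in PQ, and 6 and 7.67 in NAC. Syn1, a synaptic vesicle gene, was also lowest in NAC, with FPKM values of 4.91 and 6.77, 9.05 and 8.94, and 4.67 and 4.14. The part of neurons or oligodendrocyte lineage cells in the level of Ahcyl2 was not tested.

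Markers of cells outside the neural lineage were low. For 6 microglia markers, 3 at or under 3 counts, the summed FPKM lay between 1.91 and 4.59, highest in the NAC libraries. It was led by P2ry12 at 1.52 and 1.28 in control, 2.26 and 1.90 in PQ, and 3.88 and 2.63 in NAC, whose rise in NAC against control (adjusted p = 0.0033 by edgeR) was lost without NAC 1 (adjusted p = 0.092 by edgeR). It lay between 0.22 and 0.62 for 5 endothelial markers, 3 of them at or under 3 counts, led by Pecam1, with Cldn5 at 0. It lay between 0.51 and 2.24 for 5 fibroblast and pericyte markers, 2 of them at or under 3 counts, led by Dcn over the libraries, and was highest in PQ 1. It was at most 0.28 for 5 hepatocyte markers, 4 of them at or under 3 counts, led by Serpina1a over the libraries, with Alb, Ttr and Cps1 at 0. Cdkn2a, which encodes Ink4a and Arf, and the neighbouring gene Cdkn2b had between 120 and 179 counts each in every library. They had summed FPKM of 27.3 and 32.1 in control, 25.2 and 29.3 in PQ, and 22.6 and 26.3 in NAC, and counts per gene do not show which exons the reads came from.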

How the data were processed

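RNA-seq was analysed from 6 NSPC libraries, grouped by the treatment in the labels. Replicate numbers follow accession order and are not in the labels, but control 1 and PQ 1 share the labelled protocol, as do control 2 and PQ 2. In each table the authors gave expected counts, which apportion ambiguous reads, and FPKM, normalized by the authors for transcript length and library size. The submitters' processing notes name TopHat2 2.0.11 and Cufflinks 2.1.1 with mm9 for control 1 and PQ 1, and HISAT2 2.0.4, Bowtie2 2.2.5 and RSEM with mm10 for the rest. The methods name TopHat, Cufflinks and mm9 throughout, and a stranded kit. All 6 tables have the columns that RSEM writes, and whether strand was used in counting is not given in the sources used here. The NAC dose comes from the methods. Unlisted genes were taken as 0, and 99.7% of identifiers matched an NCBI symbol.

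Rounded expected counts were tested with edgeR 4.0.16 in R 4.3.3 (TMM, glmQLFit, glmQLFTest, two-sided, no covariates, all 6 libraries in 1 fit) for the 11717 genes reaching a mean FPKM of 1, with Benjamini-Hochberg adjustment over all of them and a threshold of 0.05. Intervals (95%) used the t distribution. A gene that never exceeded 3 counts was called not detectable. Replicates differed by more than sampling noise (chi-square per degree of freedom 6.91 in control, 4.11 in PQ, 4.75 in NAC). Gene positions are from GENCODE vM1 for mm9.

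The members and lists were chosen with earlier results of these data known, and the motifs after the values had been seen. Text names follow a rule: the 10 members, up to 4 called genes per other list by smallest p over the 3 groups, pathway genes at or under 3 counts, and for marker lists also the most abundant gene and those at 0. Sox2, Pax6, Msi1, Tubb3, Aldh1l1 and Ada were named after their values had been seen. Results for 3 genes of the planned lists are not reported here, and list counts and sums leave them out. Scripts were tested on simulated counts. The alternatives were DESeq2 size factors, library totals, no filter, a mean FPKM of 0.1, the protocol as a covariate, fitting the 4 compared libraries alone, omitting each library, DESeq2 1.42.0, and limma 3.58.1 on log2(FPKM + 1) or log2(FPKM + 0.1). Other experiments of the study were not analysed here.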

Additional observations from a re-analysis of the deposited data

How the results depend on the processing

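The calls of Ahcy in PQ against control and against NAC, and that of Ahcyl2 in NAC against control, kept their direction in all 15 alternatives. They also kept an adjusted p under 0.05. The call of Cth in NAC against control did so too, but the fits without single libraries kept the genes filtered on all 6. Without control 1 the mean FPKM of Cth was 0.728, under the filter. Over the 105 alternative values of the 7 calls among the 9 genes tested, 95 stayed past the threshold and 10 did not, all with the same sign. Of 81 calls of the other named genes, 51 held in all 15 alternatives and none changed sign.

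In PQ against control, the 2 genes called became 1 with limma on log2(FPKM + 1) or log2(FPKM + 0.1), and 1 to 2 without single libraries. In NAC against control 2 genes were called in every alternative. In PQ against NAC, the 3 became 1 to 3 without single libraries and 2 with the protocol as a covariate. Leaving out a library leaves its group with 1, which is assumed to vary like the others. Over all genes, leaving out a library gave 866 to 2206 calls in PQ against control (2250 with all libraries), 1259 to 2126 in NAC against control (2186) and 2343 to 4208 in PQ against NAC (3708). With library totals the split in NAC against control was 1335 higher and 946 lower, against 1056 and 1130 with TMM.

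Log2 fold changes near 0 that were not called changed sign, and the cause was not tested. Mat2a in NAC against control gave 0.043 with library totals, 0.12 with the protocol as a covariate, 0.00065 with only the 4 libraries compared, 0.049 and 0.050 with limma on log2(FPKM + 1) and log2(FPKM + 0.1) and -0.14 to 0.15 without single libraries. Mat2a in PQ against control gave -0.0056 to 0.28 without single libraries. Mtr in NAC against control gave 0.033 with library totals, 0.023 and 0.025 with limma on log2(FPKM + 1) and log2(FPKM + 0.1), and -0.17 to 0.13 without single libraries. Mtr in PQ against NAC gave -0.23 to 0.066 without single libraries. Mtrr in NAC against control gave 0.0066 with the protocol as a covariate and -0.145 to 0.021 without single libraries, and in PQ against NAC -0.016 with that covariate. Mtrr in PQ against control gave 0.018 with library totals, 0.014 and 0.016 with limma on log2(FPKM + 1) and log2(FPKM + 0.1), and -0.090 to 0.076 without single libraries. Ahcyl2 in PQ against control gave -0.0017 to 0.16, and Cbs -0.16 to 0.15, without single libraries. Cbs gave -3.7e-05 with a mean FPKM of at least 0.1.

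No paired analysis was possible because the labels carry no replicate numbers, so nothing ties single cultures together across groups. A fit blocked by the labelled protocol, shared by control 1 with PQ 1 and by control 2 with PQ 2, was made as the covariate alternative, with log2 fold changes in PQ against control of -0.59 for Ahcy and -1.90 for Cth (adjusted p = 4.5e-04 and 0.0021 by edgeR). With 2 libraries per group, small differences were beyond reach, Gnmt was not measurable, and Cth rested on 6 to 77 counts a library.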

Other observations

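The 6 ratios of FPKM between genes within a library given here were computed after the values had been seen. Several share a gene, so they are not separate results. How often ratios of other genes separate the groups was not computed. The ratio of Ahcy to Ahcyl1 was 0.515 and 0.507 in control, 0.364 and 0.370 in PQ, and 0.506 and 0.512 in NAC, so that control and NAC libraries lay together although both genes stood higher in NAC. The ratio of Mat2a to Ahcy, the genes for making SAM and for clearing SAH, was 2.04 and 1.66 in control, 3.24 and 2.86 in PQ, and 1.63 and 1.69 in NAC. That of Mat2a to Mat2b was 2.33 and 1.76 in control, 2.84 and 2.42 in PQ, and 2.30 and 2.22 in NAC. The ratio of Cbs to Cth, the first and the last gene of transsulfuration, was 1.73 and 4.57 in control, 13.3 and 6.84 in PQ, and 19.9 and 14.5 in NAC, and it follows Cth, since Cbs differed little. The ratio of Ahcyl1 to Ahcyl2 was 6.58 and 6.52 in control, 5.53 and 6.03 in PQ, and 5.59 and 5.30 in NAC. That of Mat2a to Gnmt, which rests on 1 to 3 counts of Gnmt, was 880 and 384 in control, 344 and 835 in PQ, and 467 and 409 in NAC. These are ratios of RNA levels and say nothing of enzyme activity or metabolites, which were not analysed here.

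The 10 genes together summed to an FPKM of 292 and 280 in control, 279 and 260 in PQ, and 314 and 301 in NAC.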
